A study of Rattus norvegicus with 30 samples.

Results

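The heat shock proteins and co-chaperones described here are 10 named rat genes: Hspa1b, Hspa8, Hsph1, Hspb1, Hspb8, Dnaja1, Dnajb1, Dnajb4, Bag3 and Hsf1. They were found by matching the transcript accession of each array probe to RefSeq gene symbols, and the brightest probe stood for its gene. In this way 8 of the 10 were matched, and all 8 passed the filter on dim genes, among 18333 genes tested and 26785 measured. Hspa1b and Dnajb1 had no matched probe and were not analysed here. Each of the 8 genes was above background on all 30 arrays.

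The arrays measured total RNA from left ventricles. The donors were male Sprague Dawley rats, 16 to 18 weeks old, that ate chow or a high-sucrose diet. The sucrose diet lasted 8 to 10 weeks and was given to make the animals insulin resistant. Every heart was excised into ice-cold Krebs-Henseleit buffer. The hearts of the non-perfused groups were then dissected and frozen. The perfused hearts beat outside the body in working mode for 60 min, against a filling pressure of 15 and an afterload of 100 cm of water, in buffer whose fuels were hydroxybutyrate at 10 mmol/L, propionate at 2 mmol/L and acetoacetate at 1 mmol/L, with calcium at 2.5 mmol/L. That buffer also held 25 mmol/L glucose or, as its osmotic control without glucose, 25 mmol/L of the sugar alcohol mannitol. The 6 groups (chow or sucrose, each non-perfused, mannitol or glucose) had 5 hearts each on 1 array per heart, which the labels call biological replicates. The excised heart in buffer has no circulating blood and no nervous or hormonal input.

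Heat shock proteins bind unfolded proteins and keep them from clumping until they refold or are degraded. HSP70 proteins do the refolding with ATP, J-domain proteins bring them their substrates, HSP110 proteins exchange their nucleotide, and small heat shock proteins hold unfolded chains without ATP. Heat shock factor 1 (HSF1), when released and trimerised in stress, binds inverted repeats of the pentamer nGAAn in the promoters of many of these genes, and heart muscle expresses several of them strongly.

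The promoters are shown first, because that repeat can be read directly in them. RefSeq promoter sequences on the GRCr8 assembly, each of 250 bases before and 50 bases from the start of the gene, were found for 6 of the 8 genes (Hspa8, Hsph1, Hspb1, Hspb8, Dnaja1 and Bag3). The patterns searched were GAANNTTC and TTCNNGAA, which read the same on both strands, and their overlap in 3 units, which is GAANNTTC followed by NNGAA or, on the other strand, TTCNNGAA followed by NNTTC. Below are 4 promoters, 5′ to 3′ in the direction of the gene, with every match in capitals: those of the strongly moving Dnaja1 and Hspb1, of Hspa8 with its repeated 3-unit match, and of Hsph1, whose transcript did not pass the test in any comparison.
Dnaja1 (chr5:60638154-60638453, plus strand): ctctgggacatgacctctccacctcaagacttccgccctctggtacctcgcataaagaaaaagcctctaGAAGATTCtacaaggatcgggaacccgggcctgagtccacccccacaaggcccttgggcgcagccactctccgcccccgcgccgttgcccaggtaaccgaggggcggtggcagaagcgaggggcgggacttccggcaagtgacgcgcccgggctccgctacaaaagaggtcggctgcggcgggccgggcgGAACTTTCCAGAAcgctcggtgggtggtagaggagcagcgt
Hspb1 (chr12:26432252-26432551, minus strand): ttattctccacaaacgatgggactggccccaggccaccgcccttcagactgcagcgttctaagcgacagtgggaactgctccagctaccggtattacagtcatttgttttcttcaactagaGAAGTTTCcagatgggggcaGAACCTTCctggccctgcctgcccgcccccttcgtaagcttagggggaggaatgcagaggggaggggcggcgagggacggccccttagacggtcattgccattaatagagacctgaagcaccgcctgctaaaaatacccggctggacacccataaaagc
Hspa8 (chr8:50080264-50080563, plus strand): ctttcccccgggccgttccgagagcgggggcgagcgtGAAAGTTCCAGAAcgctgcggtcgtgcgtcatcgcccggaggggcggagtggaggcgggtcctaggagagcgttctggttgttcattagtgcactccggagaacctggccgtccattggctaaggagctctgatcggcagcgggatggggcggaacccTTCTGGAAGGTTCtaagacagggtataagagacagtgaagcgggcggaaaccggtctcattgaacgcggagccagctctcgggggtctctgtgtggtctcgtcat
Hsph1 (chr12:10427118-10427417, plus strand): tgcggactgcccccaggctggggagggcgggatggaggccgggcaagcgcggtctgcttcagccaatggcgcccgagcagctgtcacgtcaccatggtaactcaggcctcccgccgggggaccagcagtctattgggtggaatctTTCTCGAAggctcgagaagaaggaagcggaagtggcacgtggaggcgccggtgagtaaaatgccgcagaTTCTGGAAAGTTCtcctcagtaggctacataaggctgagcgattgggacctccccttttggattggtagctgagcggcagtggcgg

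All 6 promoters held GAANNTTC, which 8.59% of the 33469 RefSeq rat promoters of this length hold. The match began 181 bases before the start and again 10 bases into the gene in Dnaja1, 129 and 109 bases before the start in Hspb1, and 213 and 50 bases before it in Hspa8. It began 31 bases before the start in Hsph1, 132 in Bag3 and 23 in Hspb8. The 3-unit pattern lay in the Dnaja1, Hspa8 and Hsph1 promoters, with 2 matches in Hspa8, and 0.798% of all promoters hold it on either strand. A match describes the letters and does not show that HSF1 bound there in these hearts.

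Levels are given as the log2 of the processed array signal minus the array's 75th percentile, so 0 is that percentile, and changes subtract one group mean from another, with the limma fit's standard error (SE). Rose and fell are used of a gene whose Benjamini-Hochberg adjusted p over all genes tested was under 0.05. Levels of different genes are not compared, because probes differ in brightness. The number of arrays limits the precision. Each p-value sets a difference against the spread between arrays of a group, which mixes differences between hearts, slides and arrays. The share of probes well above background was 48.8% to 75.4% per array. Of the 5 slides, 4 carried all 6 groups and 1 held sucrose mannitol replicate 1 alone, and 4 arrays had noisy negative controls (replicate 5 of sucrose mannitol, replicates 1 and 5 of sucrose non-perfused and replicate 2 of chow non-perfused). All 8 cardiomyocyte markers listed were above background on every array, including Myh6 and Tnnt2. The 5 measured red blood cell markers summed to 526 to 854 times the 75th percentile on non-perfused arrays and 5.92 to 93.5 times on perfused arrays. In bulk tissue, fewer cells of a type and less RNA per cell cannot be told apart.

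The first question was how these transcripts differ between perfused and non-perfused hearts. Dnajb4, Dnaja1 and Hspb1 rose in all 4 comparisons of a perfused group with the non-perfused group of its diet, by 1.68- to 2.58-fold. Hspa8, Hspb8 and Bag3 were 1.16- to 1.31-fold higher and passed the test in 3, 3 and 2 of the 4. Hsph1 and Hsf1 passed in none, and no gene of the 8 fell. Called up were 6 of 8 with mannitol in chow hearts (4.83% of all genes tested), 5 of 8 with glucose in chow hearts (5.47%), 5 of 8 with mannitol in sucrose hearts (5.53%) and 4 of 8 with glucose in sucrose hearts (5.54%). Rising in all 4 were 3 of 8, against 3.24% of all genes. The mannitol and glucose comparisons of a diet share their non-perfused arrays, so their values are given side by side and are not independent. Row 1 of the slides held all 10 non-perfused arrays, all 5 of chow mannitol and 1 of sucrose mannitol, and row 2 held the 10 glucose arrays and the other 4 of sucrose mannitol. Row and perfusion therefore cannot be told apart in the glucose comparisons, nor, but for 1 array, in that of sucrose mannitol, while the chow mannitol comparison lies within row 1.

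**Figure D1:**
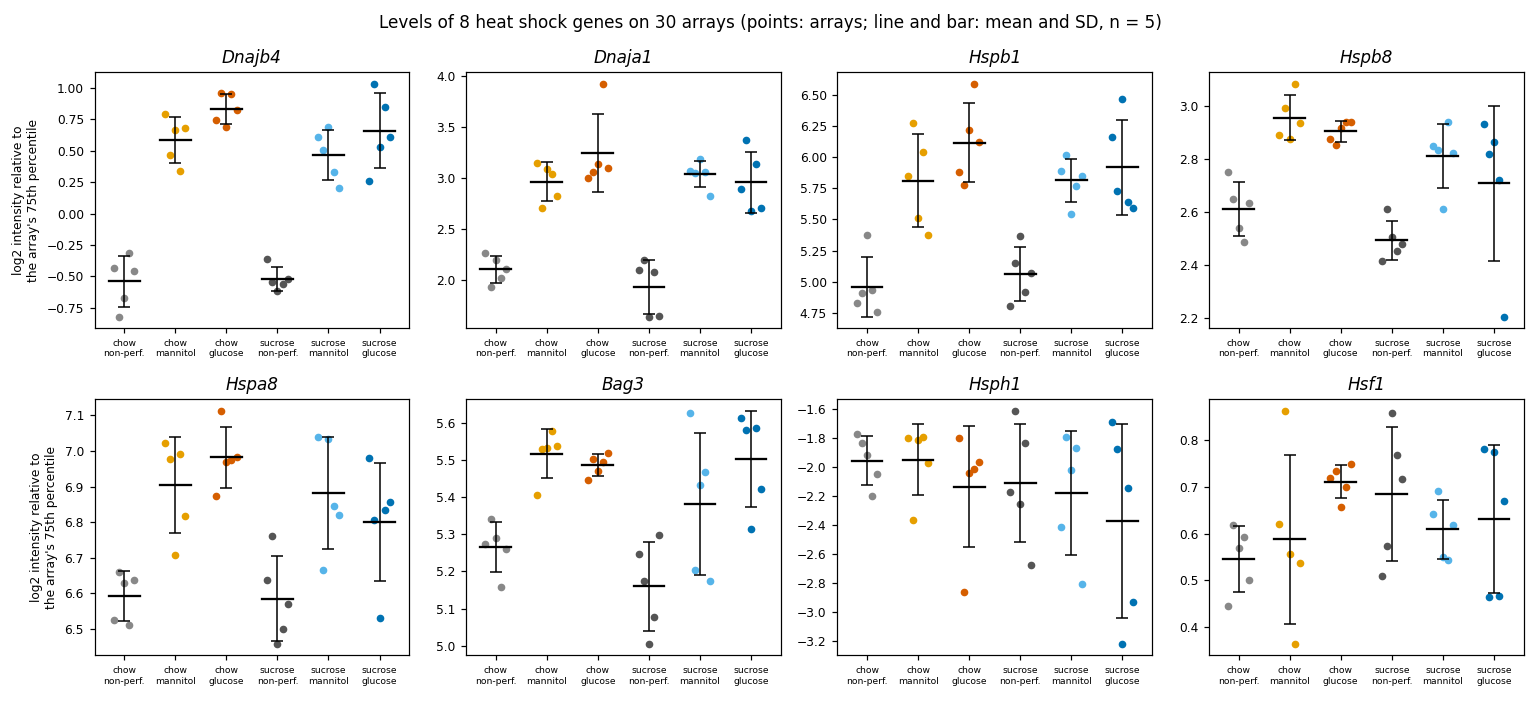
Level of each of the 8 genes (vertical axis, log2 intensity relative to the array's 75th percentile) on the 5 arrays of each group (horizontal axis); points are arrays, and the line and bar are the mean and SD. For Dnajb4 the 20 perfused arrays start at 0.20 and the 10 non-perfused arrays end at -0.32, while the Hsph1 and Hsf1 groups overlap widely.

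Both J-domain protein genes among the 8 rose in all 4 comparisons. Dnajb4 encodes a cytosolic J-domain protein of the class that takes misfolded proteins to HSP70. Its level on chow non-perfused arrays was -0.43, -0.82, -0.67, -0.32 and -0.46, on chow mannitol arrays 0.79, 0.46, 0.66, 0.34 and 0.68, and on chow glucose arrays 0.75, 0.96, 0.68, 0.95 and 0.82. On sucrose arrays it was -0.36, -0.54, -0.61, -0.56 and -0.52 without perfusion, 0.60, 0.51, 0.69, 0.33 and 0.20 with mannitol, and 0.26, 1.03, 0.53, 0.85 and 0.61 with glucose. Every perfused array lay above every non-perfused array of either diet, a separation that 2.06% of all genes tested also show in the upward direction. Dnajb4 rose by 1.13 with mannitol and 1.37 with glucose in chow hearts, and by 0.98 and 1.17 in sucrose hearts (SE 0.12; 2.18-, 2.58-, 1.98- and 2.26-fold). The limma adjusted p was 1.96e-07, 4.23e-09, 1.72e-06 and 8.56e-08. Within the 4 shared slides the difference ran from 0.78 to 1.77 and was upward in each of the 4 slides in all 4 comparisons.

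Dnaja1 encodes the widely expressed cytosolic J-domain protein that works with HSC70, the product of Hspa8, in folding and in import of proteins into mitochondria. Its level on chow non-perfused arrays was 2.26, 1.92, 2.19, 2.02 and 2.10, on chow mannitol arrays 3.15, 2.71, 3.09, 3.04 and 2.82, and on chow glucose arrays 3.00, 3.06, 3.14, 3.92 and 3.10. On sucrose arrays it was 2.09, 2.20, 1.64, 2.08 and 1.65 without perfusion, 3.07, 3.05, 3.18, 3.05 and 2.83 with mannitol, and 2.89, 3.38, 2.68, 3.13 and 2.70 with glucose. Again all 20 perfused arrays lay above all 10 non-perfused arrays, the lowest perfused value being 2.68 and the highest non-perfused value 2.26. Dnaja1 rose by 0.86 with mannitol and 1.14 with glucose in chow hearts, and by 1.10 and 1.02 in sucrose hearts (SE 0.16; 1.82-, 2.21-, 2.15- and 2.03-fold; limma adjusted p = 0.000338, 5.65e-06, 1.2e-05 and 3.47e-05). Chow glucose replicate 4 stood far above its group, and without it the chow glucose rise was 0.97 (adjusted p = 1.03e-05). Within slides the difference ran from 0.68 to 1.90, the latter on the slide of that array.

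Hspa8 encodes HSC70, the HSP70 that cells make without stress and that also uncoats clathrin vesicles and feeds chaperone-mediated autophagy. Its brightest probe read 6.51 to 6.66 on chow non-perfused arrays, 6.71 to 7.02 with mannitol and 6.87 to 7.11 with glucose. In sucrose hearts it read 6.46 to 6.76 without perfusion, 6.67 to 7.04 with mannitol and 6.53 to 6.98 with glucose. Both perfused chow groups lay above the non-perfused one, as they did for 5% of all genes with mannitol and 5.18% with glucose, and the sucrose groups overlapped. Hspa8 rose by 0.31 and 0.39 in chow hearts with mannitol and glucose and by 0.30 in sucrose hearts with mannitol (SE 0.09; limma adjusted p = 0.0186, 0.00234 and 0.0219), and the sucrose glucose difference of 0.22 did not pass (adjusted p = 0.128). That last comparison passed without sucrose glucose replicate 3, at an adjusted p of 0.0293. It was 0.37 with the mean of the gene's probes (0.0063) and 0.33 with quantile scaling (0.0147), both past the threshold, and it also passed with slide as a fixed block (0.0424). In the authors' deposited values it was 0.46 and did not pass (0.284). The chow mannitol call ended without chow non-perfused replicate 4 or chow mannitol replicate 1 or 4 (adjusted p at most 0.0591), and the sucrose mannitol call without sucrose mannitol replicates 1 or 3 or sucrose non-perfused replicates 3 or 4 (adjusted p up to 0.0686). Of 13 alternative settings, the chow mannitol, chow glucose and sucrose mannitol calls of Hspa8 held in 11, 11 and 8. Among others, the sucrose mannitol call ended with only the compared groups (0.122) and without the 4 arrays of noisy negative controls (0.081).

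The array held 4 probes for the Hspa8 transcript, and all 4 read higher in each of the 4 perfusion comparisons. In a fit over 20606 probes, the third probe by brightness rose by 0.49 and 0.57 in chow hearts (mannitol and glucose) and by 0.42 and 0.46 in sucrose hearts, with an SE of 0.07. The fourth rose by 0.56, 0.62, 0.38 and 0.45 (SE 0.13; limma adjusted p = 0.00333, 0.00104, 0.0464 and 0.0203). The second read 0.37, 0.32, 0.41 and 0.35 higher with an SE of 0.18 and passed in no comparison. The probes thus differed in which comparisons passed and not in sign, and whether any of them also takes up transcripts of near-identical Hspa8 copies was not tested.

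Hsph1 encodes HSP110 (HSP105), which exchanges the nucleotide of HSP70 and pulls apart aggregates with it. Its probe was dim, with group means from -2.37 to -1.95. The differences were 0.01 and -0.18 in chow hearts (mannitol and glucose) and -0.07 and -0.26 in sucrose hearts, with an SE of 0.26 (limma adjusted p = 0.996, 0.783, 0.914 and 0.638). The 95% intervals reached from -0.79 to 0.54. All groups overlapped, and the spread on sucrose glucose arrays was 0.67 (SD, n = 5), from -3.22 to -1.69.

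**Figure D2:**
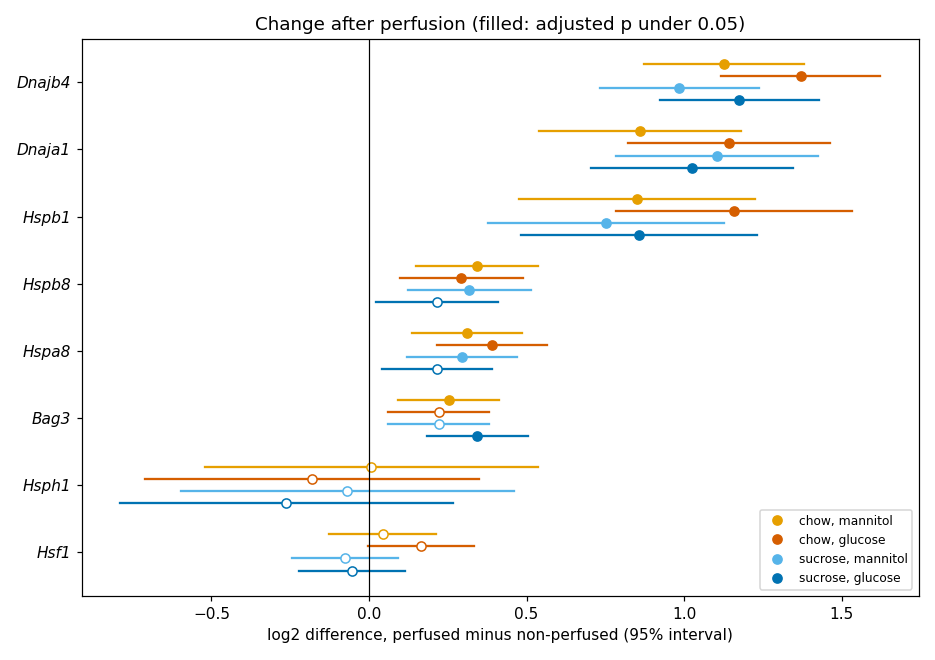
Change of each gene (horizontal axis, log2 difference of group means, perfused minus non-perfused, with its 95% interval) in the 4 perfusion comparisons; filled points have an adjusted p under 0.05. Dnajb4, Dnaja1 and Hspb1 lie between 0.75 and 1.37, Hspb8, Hspa8 and Bag3 between 0.21 and 0.39, and Hsph1 and Hsf1 span 0.

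Among the small heat shock proteins, Hspb1 and Hspb8 both rose after perfusion in chow hearts, and Hspb1 rose by more. Hspb1 encodes HSP27 (HSP25 in rodents), a phosphorylated holdase that binds actin and titin. Its level on chow non-perfused arrays was 4.83, 4.91, 5.37, 4.93 and 4.76, on chow mannitol arrays 5.85, 6.28, 5.51, 6.04 and 5.37, and on chow glucose arrays 5.88, 5.78, 6.22, 6.59 and 6.12. On sucrose arrays it was 4.81, 5.15, 5.37, 4.92 and 5.07 without perfusion, 5.89, 6.01, 5.54, 5.77 and 5.85 with mannitol, and 6.16, 5.73, 6.47, 5.64 and 5.59 with glucose. All 20 perfused arrays lay above all 10 non-perfused arrays, but the lowest perfused array exceeded the highest non-perfused one by only 0.0031. Hspb1 rose by 0.85 with mannitol and 1.16 with glucose in chow hearts, and by 0.75 and 0.86 in sucrose hearts (SE 0.18; 1.80-, 2.23-, 1.68- and 1.81-fold; limma adjusted p = 0.00226, 4.51e-05, 0.00636 and 0.00199). Within slides the difference ran from 0.24 to 1.66 and was upward in every slide. Without the 4 arrays of noisy negative controls the sucrose mannitol difference was 0.66 and no longer passed (adjusted p = 0.0964), and in the authors' deposited values the chow mannitol difference was 0.86 with an adjusted p of 0.0672.

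**Figure D3:**
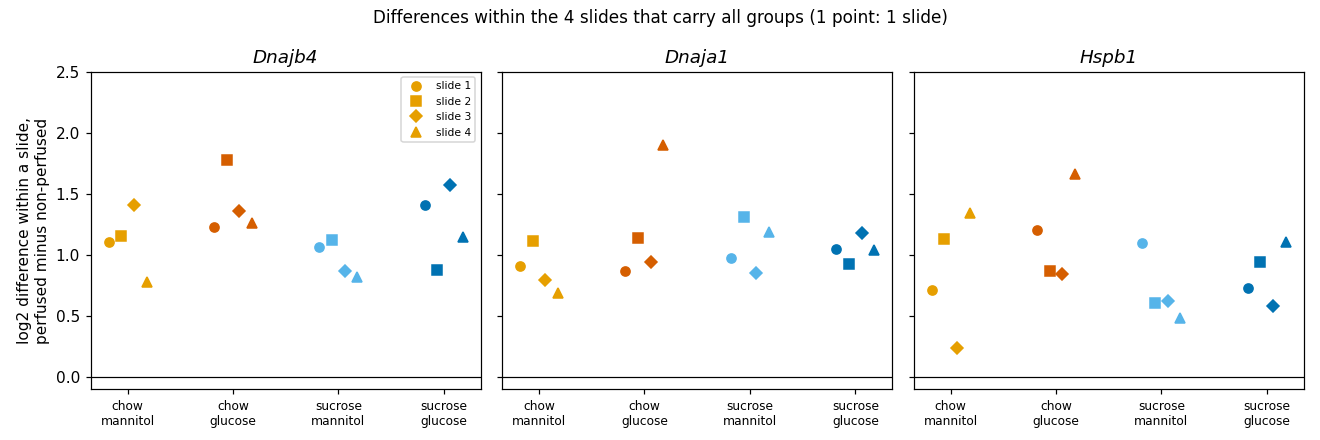
Differences within each of the 4 slides that carry all groups (vertical axis, log2 difference, perfused minus non-perfused; marker shape gives the slide) for Dnajb4, Dnaja1 and Hspb1 in the 4 perfusion comparisons (horizontal axis). All 48 differences lie above 0, the lowest being 0.24 for Hspb1 with mannitol in chow hearts.

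Hspb8 encodes HSP22, the small heat shock protein that pairs with BAG3. It read 2.49 to 2.75 on chow non-perfused arrays, 2.88 to 3.09 with mannitol and 2.85 to 2.94 with glucose, so both perfused chow groups lay above the non-perfused one. In sucrose hearts it read 2.42 to 2.61 without perfusion, 2.61 to 2.94 with mannitol and 2.21 to 2.94 with glucose, and the glucose group overlapped the non-perfused one through replicate 5 at 2.21. The mannitol and non-perfused ranges met at 2.61 without overlap, an upward separation that 4.36% of all genes show. Hspb8 rose by 0.34 with mannitol and 0.29 with glucose in chow hearts and by 0.32 with mannitol in sucrose hearts (SE 0.09; limma adjusted p = 0.0194, 0.0485 and 0.0264). The sucrose glucose difference was 0.21 (adjusted p = 0.188), and it was 0.34 with an adjusted p of 0.00151 without that replicate 5. The chow glucose call sat at the threshold and ended in 23 of the 30 fits that left out 1 array (adjusted p up to 0.12). The chow mannitol call ended without chow non-perfused replicate 4 or chow mannitol replicate 4 (up to 0.0609), and the sucrose mannitol call without sucrose mannitol replicates 1, 2 or 4 or sucrose non-perfused replicates 1, 4 or 5 (up to 0.0723). With slide as a fixed block the sucrose mannitol difference of Hspb8 was 0.30 and no longer passed (0.0597). Without the 4 arrays of noisy negative controls that difference was 0.29 and did not pass either (0.187). Of 13 alternative settings, the chow mannitol, chow glucose and sucrose mannitol calls of Hspb8 held in 11, 6 and 7.

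Bag3 encodes the co-chaperone that links HSP70 to small heat shock proteins and sends worn filament proteins of the sarcomere to autophagy. It read 5.16 to 5.34 on chow non-perfused arrays, 5.41 to 5.58 with mannitol and 5.45 to 5.52 with glucose. In sucrose hearts it read 5.00 to 5.30 without perfusion, 5.18 to 5.63 with mannitol and 5.32 to 5.61 with glucose. In sucrose hearts the mannitol group overlapped the non-perfused one and the glucose group lay above it, as 4.75% of all genes did, and in chow hearts both perfused groups lay above. Bag3 rose by 0.25 with mannitol in chow hearts and by 0.34 with glucose in sucrose hearts (SE 0.08; limma adjusted p = 0.041 and 0.00373). With glucose in chow hearts and mannitol in sucrose hearts it was 0.22 higher without passing (adjusted p = 0.0746 and 0.0674). The chow mannitol call ended in 8 of the fits that left out 1 array, those without chow non-perfused replicates 1, 3, 4 or 5 or chow mannitol replicates 2, 3, 4 or 5 (adjusted p up to 0.109). Conversely, the chow glucose difference passed without sucrose mannitol replicate 1 (0.0442), and the sucrose mannitol difference passed without sucrose non-perfused replicate 5 or sucrose mannitol replicates 2 or 5 (0.0243 to 0.0497). The sucrose mannitol difference of Bag3 was larger and passed with quantile scaling (0.35; adjusted p = 0.00175), with normexp (0.36; 0.00214), in the authors' deposited values (0.40; 0.0316) and without the 4 arrays of noisy negative controls (0.35; 0.0154). With slide as a random block it passed at 0.0329, and the chow glucose difference passed at 0.0297 (0.0149 as a fixed block). The chow mannitol call of Bag3 held in 10 of the 13 alternative settings. It ended in the authors' deposited values (limma adjusted p = 0.229), without the filter on dim genes (0.076) and with the replicate block (0.0615). The sucrose glucose call held in 12 of the 13 and ended with only the compared groups (0.0536).

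Hsf1 encodes HSF1 itself, a factor whose activity is set mainly on the protein and not by its transcript. Its group means were 0.55 and 0.69 on chow and sucrose non-perfused arrays, 0.59 and 0.61 with mannitol, and 0.71 and 0.63 with glucose. The differences from non-perfused hearts were 0.04 and 0.17 in chow and -0.08 and -0.05 in sucrose hearts (SE 0.08), and none passed. On chow glucose arrays the range of 0.66 to 0.75 lay above the non-perfused range of 0.45 to 0.62, yet the adjusted p was 0.253. Among the 8 genes, 7 were higher without overlap in that comparison, where 5.18% of all genes tested were.

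The second question was whether glucose in the buffer or the diet changed these levels. None of the 8 genes passed in any comparison of glucose with mannitol, of sucrose with chow, or of the differences in response between diets, and between 0 and 1 of the 18333 genes passed in each of them (0% to 0.00545%). With limma, 0 of the 8 had an unadjusted p under 0.05 for glucose against mannitol in either diet, where 715 (chow) and 928 (sucrose) of the 18333 genes had one. In chow hearts Dnajb4 was 0.24 higher with glucose than with mannitol (95% interval -0.01 to 0.50), Dnaja1 0.28 (-0.04 to 0.60) and Hspb1 0.31 (-0.07 to 0.68). The Dnaja1 difference was 0.11 without chow glucose replicate 4. Within slides it was -0.04, 0.02, 0.15 and 1.22, the last on the slide of that array. Averaged over both diets, Dnajb4 was 0.22 higher with glucose (0.04 to 0.40; unadjusted p = 0.0191, adjusted p = 0.999). Row and glucose cannot be told apart in chow hearts, nor row and diet on mannitol arrays but for 1 array.

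Between the diets, the differences of the non-perfused groups (sucrose minus chow) ran from -0.17 for Dnaja1 to 0.14 for Hsf1, with 95% intervals reaching from -0.68 (Hsph1) to 0.48 (Hspb1). On glucose arrays 7 of the 8 read lower in sucrose than in chow hearts, and 2 of them had an unadjusted p under 0.05, as 804 of the 18333 genes did. They were Hspa8 at -0.18 (95% interval -0.36 to -0.01) and Hspb8 at -0.20 (-0.39 to -0.0035). Without sucrose glucose replicate 3 the Hspa8 difference was -0.11. Without sucrose glucose replicate 5 the Hspb8 difference was -0.07. Averaged over the 3 states, Hspb8 differed by -0.15 between sucrose and chow hearts (95% interval -0.27 to -0.04; unadjusted p = 0.00913, adjusted p = 0.666). Without sucrose glucose replicate 5 this average was -0.11. The change with perfusion did not pass a test of its difference between diets for any of the 8. For Dnajb4 that difference (sucrose minus chow) was -0.14 with mannitol and -0.20 with glucose (SE 0.17), and for Dnaja1 it was 0.24 and -0.12 (SE 0.22).

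The other chaperone genes were read from 8 lists of 96 genes, of which 84 were tested. Sets of 4 values below give mannitol and glucose in chow hearts and then both in sucrose hearts. In this order 3, 5, 4 and 5 of the 84 rose, near the share of all genes (4.83% to 5.54%), and 1, 4, 3 and 2 fell, where 3.65%, 4.04%, 5.67% and 3.14% of all genes fell. Their median difference was -0.03, 0.01, -0.05 and -0.01, beside -0.01, -0.05, -0.04 and -0.03 over all genes tested. For the 8 genes described above the median was 0.33, 0.34, 0.31 and 0.28. The test of a difference between the lists was not made.

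In the HSP70 and HSP110 family, 1 of 7 tested rose in every comparison, and it was Hspa2 each time. Hspa2 encodes an HSP70 best known from male germ cells. It rose by 0.63, 1.20, 0.95 and 0.90 (SE 0.16; limma adjusted p = 0.0122, 5.21e-06, 0.000167 and 0.00033), from means of -3.73 and -3.70 on chow and sucrose non-perfused arrays. It was not above background on all 30 arrays. With normexp the Hspa2 differences were 0.32, 0.68, 0.56 and 0.48, and the chow mannitol call ended (0.0952). Hspa4, which encodes a relative of HSP110, fell by 0.31 and 0.37 with glucose in chow and sucrose hearts (SE 0.10; adjusted p = 0.0467 and 0.0159). These 2 calls ended in 15 and 3 of the 30 fits that left out 1 array (adjusted p up to 0.131 and 0.058). Among 31 J-domain genes, 1, 2, 1 and 1 rose and 1, 3, 1 and 1 fell. With chow glucose Dnajc11 rose by 0.31, and Dnajb6 was among the 3 that fell, by 0.33. These 2 calls ended in 6 and 9 of 43 fits under other settings or without 1 array. Dnajc16 rose by 0.61, 0.65, 0.61 and 0.67 (SE 0.16; adjusted p = 0.014, 0.00784, 0.012 and 0.00677), and its chow mannitol call ended without chow non-perfused replicate 1 or chow mannitol replicate 4 (adjusted p = 0.0563 and 0.0515). Without the 4 arrays of noisy negative controls, both sucrose calls of Dnajc16 ended (0.121 and 0.072). Dnajb3 fell by 0.25, 0.27 and 0.32 with chow mannitol, sucrose mannitol and sucrose glucose (SE 0.08; adjusted p = 0.0443, 0.0256 and 0.00951), and 14, 5 and 0 of the fits that left out 1 array ended these calls. With the mean of the gene's probes the Dnajb3 differences were -0.25, -0.09 and -0.19, and none passed (0.293, 0.738 and 0.44).

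HSP90 genes rose in part. Hsp90aa1, the stress-inducible cytosolic HSP90, rose by 0.46, 0.51 and 0.47 with chow glucose, sucrose mannitol and sucrose glucose (SE 0.13; limma adjusted p = 0.0259, 0.0106 and 0.0227) and was 0.28 higher with chow mannitol (adjusted p = 0.245). The chow glucose call ended without any one of chow non-perfused replicates 1 and 5 and chow glucose replicates 3 and 4, and the sucrose glucose call without its glucose replicate 1 or its non-perfused replicates 3 or 5 (adjusted p up to 0.106 and 0.081). Without the 4 arrays of noisy negative controls both sucrose calls ended (0.16 and 0.2). Its constitutive relative Hsp90ab1 passed in none (0.04, 0.09, -0.20 and -0.13). Of 12 HSP90 and HSP90 co-chaperone genes tested, 0, 2, 1 and 1 rose and none fell. Besides Hsp90aa1, Unc45a rose with chow glucose, by 0.37, a call lost in 5 of 43 fits under other settings or without 1 array. Of 10 HSP70 co-chaperone genes without a J domain, 0, 0, 1 and 1 rose and none fell. Hspbap1 rose by 0.23 with sucrose mannitol and 0.22 with sucrose glucose, calls lost in 11 and 30 of those 43 fits.

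Of 6 mitochondrial chaperone genes 0 passed in any comparison, with Hspd1 (HSP60) between -0.05 and 0.08 and Hspe1 (HSP10) between -0.20 and 0.04. Of 8 subunit genes of the TRiC chaperonin, which folds actin and tubulin, 1 fell in 1 comparison, Tcp1 by 0.29 with sucrose mannitol (adjusted p = 0.0164, lost in 3 of the fits that left out 1 array). Of 7 small heat shock protein genes other than Hspb1 and Hspb8, 0 rose and 1 fell, Hspb2 by 0.25 with sucrose mannitol (adjusted p = 0.0312, lost in 6 of those fits). The Hspb2 difference was -0.14 with quantile scaling, -0.10 with normexp and -0.08 in the authors' deposited values, and it passed in none of these (0.294, 0.745 and 1). Cryab, the abundant alpha B-crystallin of heart muscle, read 0.12, -0.01, -0.28 and -0.30 relative to non-perfused hearts without passing.

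**Figure D4:**
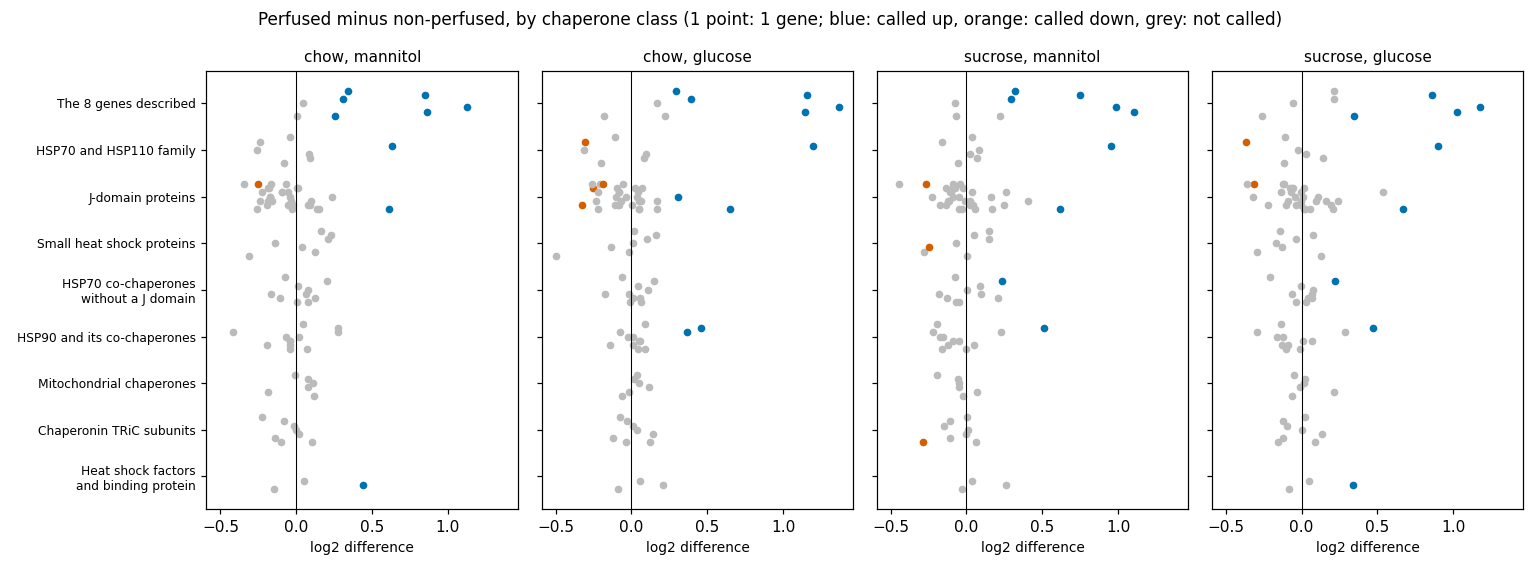
Log2 difference, perfused minus non-perfused (horizontal axis), of every tested chaperone gene by class (vertical axis), 1 panel per perfusion comparison; blue points were called up, orange down and grey not called. In the top row 6, 5, 5 and 4 of the 8 genes described are blue, and in the other 8 classes together 3, 5, 4 and 5 of 84 are.

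Genes outside the 10 that are known targets of HSF1 were a further list, which overlaps those above. Of 17 tested, 2, 3, 3 and 2 rose and 0, 0, 1 and 0 fell. Zfand2a, which encodes a proteasome-associated protein induced with the heat shock genes, rose by 0.66, 0.78, 0.73 and 0.78 (SE 0.12; limma adjusted p = 0.000267, 2.22e-05, 8.18e-05 and 2.98e-05). Of the factors, Hsf2 rose by 0.44 with chow mannitol and 0.34 with sucrose glucose (SE 0.10; adjusted p = 0.00417 and 0.0316), the latter lost in 6 of the fits that left out 1 array. With the mean of the gene's probes the Hsf2 differences were 0.29 and 0.25 and did not pass (0.0793 and 0.136). In the authors' deposited values none of the calls named above for Dnajc16, Dnajb3, Hspa4, Hsp90aa1, Tcp1, Hspb2 and Hsf2 was made, and Hspa2 was called with chow glucose only (0.0451).

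The repeat was set beside these genes too. Of the 84 other chaperone genes, 68 had a RefSeq promoter, and 8 of these (11.8%) held GAANNTTC. Among them 4 promoters held the 3-unit pattern (Chordc1, Hspd1, Hspe1 and Cct4, named for this match), and none of those 4 genes passed in any of the 4 perfusion comparisons. Over all promoters the share with the 3-unit pattern is 0.798%. Of the genes described above, Dnaja1 holds it and rose in all 4 comparisons. Hspa8 holds it too and rose in each but that of sucrose glucose. Hsph1 holds that pattern as well and did not pass, while Hspb1 rose in all 4 and its window holds only the shorter match. Dnajb4 had no promoter to read. A link between the repeat and the changes was not tested.

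Markers of other cells moved with perfusion. Of 5 red blood cell markers 4 fell in each comparison, and of 4 neutrophil markers 2 fell in each. Of 6 macrophage and monocyte markers 3 rose in each sucrose comparison and 0 in each chow comparison, with sums of 1.78 to 2.58 times the 75th percentile on non-perfused arrays and 2.18 to 3.43 times on perfused ones. Of 8 cardiomyocyte markers 0 rose, and 1 fell with sucrose mannitol. Of 5 endothelial markers 1 rose in each comparison. Of 6 fibroblast markers 1 rose in each comparison but that of chow mannitol, and of 4 smooth muscle markers 1 rose with sucrose glucose. Of 4 atrial myocyte markers 1 fell with sucrose mannitol, and their median differences were -0.97 and -1.36 in chow hearts and -0.22 and -0.21 in sucrose hearts. On perfused arrays 4 of the 5 red blood cell markers were still above background on all 5 arrays of each group, and 2 or 3 of 5 measured neutrophil markers were above background on none, against 1 on non-perfused arrays. The part of these shifts in the heat shock gene results was not tested.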

How the data were processed

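Total RNA of 30 hearts was hybridised to 1-colour Agilent arrays, 1 array per heart. Per the file headers the deposited intensity is the processed signal of Agilent Feature Extraction 11.0.1.1 (the submitters' processing notes name 10.3), with background subtracted and nothing applied between arrays. The authors' deposited series table holds log2 values with array medians of 7.23 to 7.24. They correlate at 0.998 or more with the scanner values, and their scaling between arrays is not given in the sources used here.

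Spots of a probe were averaged without outlier spots, log2 was taken and the array's 75th percentile subtracted. Accessions were matched to RefSeq symbols (18355 of 30367 probes, 60.4%). A gene was tested if above background on 4 or more of the 5 arrays in some group. Means of the 6 groups were fitted to all arrays with limma 3.58.1 in R 4.3.3, in 14 comparisons, each adjusted by Benjamini-Hochberg at 0.05. Intervals are 95%. Promoter matches were found with Python 3.11.15 and figures drawn with matplotlib 3.10.9. The fit over single probes of Hspa8 was added after the data were seen. The fit was tested on simulated data.

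The members, the lists and the other settings were chosen with earlier results of these data known. All 10 members were to be named, with up to 4 called genes of each chaperone list and Hsp90aa1, Hsp90ab1, Cryab, Hspd1, Hspe1, Hspa1a and Hsf2 where measured. Hspa1a had no matched probe, and 1 gene that the rule names is not reported here. The rule for genes of a similar pattern rested on Hspa1b or Dnajb1 and was not applied. Replicate numbers did not pair the arrays: residuals of arrays of one number had a mean correlation of -0.037, those of other numbers 0.0097, and those of one slide 0.204.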

Additional observations from a re-analysis of the deposited data

Results flagged for a closer look

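Of 48 combinations of a gene and a group, 4 held an array far from the other 4 by Dixon's test at its 95% critical value, and chance flags about 1 group in 20. Hsph1 on chow glucose replicate 2 was the lowest of its group at -2.86, with the others from -2.04 to -1.80, and without it the Hsph1 difference with glucose in chow hearts was 0.00083 in place of -0.18. Hspb1 on chow non-perfused replicate 3 was the highest at 5.37, with the others from 4.76 to 4.93. Dnaja1 on chow glucose replicate 4 was the highest at 3.92, with the others from 3.00 to 3.14. Bag3 on chow mannitol replicate 1 was the lowest at 5.41, with the others from 5.53 to 5.58. The 4 values lie on 4 different arrays, and none of these is among the 4 arrays of noisy negative controls.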

How the results depend on the processing

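The 13 alternatives changed the scale (quantile, or median), the background correction (normexp, on median signals, with quantile scaling), the filter (none, or above background on 30 of 30 arrays), the choice of probe (gene mean), the block (slide fixed, slide random, replicate block) or the arrays in the fit (compared groups, no array that is single on its slide, no noisy arrays), or took the authors' deposited values. Each array was also left out in turn. Under all of these, 172 values each, Dnajb4 and Dnaja1 rose in every perfusion comparison (0.87 to 1.43 and 0.81 to 1.23), and Hspb1 was called in 170 of 172 (0.66 to 1.26). The count of the 8 genes called with chow mannitol, 6, was 2 in the authors' deposited values and 3 to 6 leaving out 1 array (3 without chow non-perfused replicate 4 or chow mannitol replicate 4). With chow glucose, 5, it was 3 in the authors' deposited values and 4 to 5 leaving out 1 array. With sucrose mannitol, 5, it was 3 with only the compared groups, 3 without the single array of its slide, 3 without the 4 noisy arrays, and 3 to 6 leaving out 1 array (3 without sucrose non-perfused replicate 4 or sucrose mannitol replicate 1). With sucrose glucose, 4, it ran from 3 to 5, and in the other 10 comparisons it was 0 throughout. The replicate block gave 5, 4, 5 and 4 called and ended the calls of Bag3 with chow mannitol (adjusted p = 0.0615) and Hspb8 with chow glucose (0.063). Hspa8 and Hspb8 lost all their calls under normexp and in the authors' deposited values, although the called Hspa8 differences were larger there (0.41 to 0.48 and 0.44 to 0.47). In the deposited values 361 to 447 of all genes were called per perfusion comparison in place of 1556 to 2054. The deposited values shifted the median of all genes by -0.11 with chow glucose and 0.10 with sucrose glucose.

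Values of the other sign came only from uncalled differences. Hsph1 with chow mannitol was -0.024 in the authors' deposited values, -0.0061 with the median as scale, -0.070 with normexp, and -0.055 to 0.11 leaving out 1 array. Hsph1 with sucrose mannitol was 0.032 and 0.0031 in the authors' deposited values and with normexp, and leaving out 1 array it ran from -0.21 to 0.088. Hsph1 with chow glucose ran from -0.26 to 0.00083 leaving out 1 array and from -0.38 to -0.14 under the other alternatives. Hsf1 with chow mannitol was -0.0052 with normexp and -0.026 to 0.10 leaving out 1 array, and with sucrose glucose 0.016 in the authors' deposited values. The Hspa8 difference between diets on glucose arrays was 0.058 in the authors' deposited values and 0.027 with normexp. The cause was not tested. The 31 calls of other chaperone genes kept their sign in 1329 values and lost the call in 188, and those of Zfand2a lost none. In 49 further uncalled member differences, 60 of 2107 values had the other sign and 0 passed.

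Precision is limited by 5 arrays per group. Genes or promoters without a match were not analysed here.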
